A study of Homo sapiens with 4 samples.

Results

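ZC3HAV1, the PARP genes linked to interferon and DTX3L were followed through the RNA of prostate cancer cells transfected with a plasmid for the circular RNA circ0003553. The genes were taken by name and make up 9 of the 35211 genes of the count table. Of these, 7 are linked to interferon (ZC3HAV1, PARP9, DTX3L, PARP10, PARP12, PARP14 and TIPARP), and PARP1 and PARP2 are DNA repair genes set beside them as a contrast. They were chosen with the plasmid results of these libraries known, so their plasmid values are a description. No member's own plasmid p-value is given, and members that passed a threshold are only counted and named. The cells were DU145 and PC3, established human prostate cancer lines. The 4 groups held 1 library each: DU145 with the circ0003553 overexpression plasmid, DU145 with a negative control plasmid, PC3 with the circ0003553 overexpression plasmid and PC3 with a negative control plasmid. All 4 thus share transfection, and all 4 sample titles also name the gene RCAN3. The vector, the time from transfection to harvest and any separate replicate cultures are not described in the labels. Total RNA was depleted of ribosomal RNA, made into strand-specific libraries and sequenced in bulk, so more cells expressing a gene and more RNA per cell cannot be told apart.

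PARPs transfer ADP-ribose from NAD onto proteins and nucleic acids. PARP1 and PARP2 build chains of it at broken DNA, whereas PARP10, PARP12, PARP14 and TIPARP attach single units. ZC3HAV1, also called ZAP or PARP13, lacks this activity, binds CpG-rich viral RNA and directs its decay, and it is made in a long and a short form, which gene counts do not separate. Several of these genes are switched on by interferon through a transcription factor complex that includes STAT2 and IRF9 and binds the interferon-stimulated response element in promoters.

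Library totals were 33438509 to 39488890 counts. Among values of 1 to 20 counts, 70.3% to 75.3% were even, as they would be if both reads of a pair had often been counted. The 95% intervals below cover counting error only, and those of ratios within a line are therefore also given with halved counts where that matters. The keratin and EPCAM markers of epithelial cells were present in all 4 libraries, with at least 2732 counts of EPCAM. CTNNA1, a gene deleted in PC3, had 212 counts in the PC3 circ0003553 library and 139 in the PC3 control library, against 15131 in the DU145 circ0003553 library and 15074 in the DU145 control library. Of the markers of other cells, PTPRC, LYZ, CDH5, VWF, DCN, COL1A2, ALB and HBB had at most 16 counts in any library, while COL1A1 reached 1519 counts and PECAM1 595, both in PC3. RCAN3 was higher with the circ0003553 plasmid, with 816 counts in the DU145 circ0003553 library against 639 in the DU145 control library, and in PC3 with 3798 under circ0003553 against 1212 under the control plasmid, in gene counts that do not separate circular from linear RNA. Mitochondrially encoded genes took 4.96% of the counts with circ0003553 against 6.28% with the control plasmid in DU145, and 6.34% against 6.88% in PC3. Whether either difference plays a part in the values below was not tested.

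Promoter sequences are shown first because several members lie next to each other and were higher together. PARP9 and DTX3L lie head to head on chromosome 3, PARP9 on the minus strand at chr3:122527924-122564577 and DTX3L on the plus strand at chr3:122564238-122575203 (hg38), and their annotated exons share 217 bases on opposite strands. PARP14 follows 105414 bases downstream at chr3:122680618-122730840. ZC3HAV1 (chr7:139043520-139109719) and PARP12 (chr7:140023744-140063721) lie on the minus strand of chromosome 7 with 914024 bases between them. TIPARP lies at chr3:156673235-156706770, PARP1 at chr1:226360691-226408079 and PARP2 at chr14:20343582-20357905. RefSeq windows of 300 bases (GRCh38.p14), from 250 bases before to 50 bases after a gene's start, were found for 8 members and were not used for PARP10. They are written 5′ to 3′ on the gene's own strand, and capitals mark the core of the interferon-stimulated response element, searched as GAAA, any 2 bases and GAAA again, on either strand. The first 4 hold it, and ZC3HAV1, the member with the highest ratio, is shown without a match.
PARP9 (chr3:122564251-122564550, minus strand): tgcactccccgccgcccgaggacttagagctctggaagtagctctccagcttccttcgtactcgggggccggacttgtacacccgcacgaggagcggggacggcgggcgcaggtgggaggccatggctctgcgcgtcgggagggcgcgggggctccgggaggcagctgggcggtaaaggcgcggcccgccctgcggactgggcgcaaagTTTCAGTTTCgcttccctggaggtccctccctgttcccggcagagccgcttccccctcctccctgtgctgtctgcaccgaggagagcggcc
DTX3L (chr3:122564088-122564387, plus strand): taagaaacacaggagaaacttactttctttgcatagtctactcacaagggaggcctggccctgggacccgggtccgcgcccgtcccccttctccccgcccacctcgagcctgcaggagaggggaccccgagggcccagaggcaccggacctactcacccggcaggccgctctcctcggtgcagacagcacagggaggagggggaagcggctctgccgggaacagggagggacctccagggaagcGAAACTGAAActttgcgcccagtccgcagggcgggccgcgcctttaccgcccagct
PARP14 (chr3:122680589-122680888, plus strand): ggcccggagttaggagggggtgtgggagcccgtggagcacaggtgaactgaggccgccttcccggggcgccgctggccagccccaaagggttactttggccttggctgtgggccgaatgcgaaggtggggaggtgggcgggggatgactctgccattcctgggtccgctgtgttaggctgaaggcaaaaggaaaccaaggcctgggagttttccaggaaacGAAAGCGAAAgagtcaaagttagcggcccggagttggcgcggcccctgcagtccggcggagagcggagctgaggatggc
PARP12 (chr7:140062902-140063201, minus strand): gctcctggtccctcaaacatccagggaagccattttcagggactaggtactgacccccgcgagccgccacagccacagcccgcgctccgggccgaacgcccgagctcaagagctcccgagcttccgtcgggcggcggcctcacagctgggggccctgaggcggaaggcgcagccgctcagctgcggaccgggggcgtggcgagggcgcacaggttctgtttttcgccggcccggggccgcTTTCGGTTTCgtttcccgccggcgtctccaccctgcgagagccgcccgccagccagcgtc
ZC3HAV1 (chr7:139109671-139109970, minus strand): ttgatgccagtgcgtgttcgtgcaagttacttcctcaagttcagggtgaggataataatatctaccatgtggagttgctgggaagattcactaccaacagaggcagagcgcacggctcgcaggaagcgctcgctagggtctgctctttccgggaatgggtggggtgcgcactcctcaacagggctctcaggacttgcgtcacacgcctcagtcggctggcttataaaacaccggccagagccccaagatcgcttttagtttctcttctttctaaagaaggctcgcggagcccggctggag

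The capitals of PARP9 and of DTX3L are the same 10 bases of the genome, chr3:122564332-122564341, read from opposite strands, so a single match serves both windows. It begins 41 bases before the PARP9 start and 6 bases before the DTX3L start. In PARP14 the match begins 29 bases before the start, and in PARP12 10 bases before it. The match was thus found in 4 of the 11 windows of the 8 members, with the PARP9 and DTX3L windows sharing theirs, beside 3.57% of the 35116 windows of all genes (1255 windows). The other PARP9 window held none, and no window of ZC3HAV1, TIPARP, PARP1 or PARP2 held these letters. The other element searched for interferon signalling, the GAS site TTCNNNGAA, which reads the same on both strands, was matched in the windows of PARP14, ZC3HAV1 and PARP2 and in 7.66% of all windows. The core GCGTG, bound by the aryl hydrocarbon receptor that is known to induce TIPARP, was found on either strand in 1 of the 3 TIPARP windows, in the windows of ZC3HAV1, PARP12, PARP1 and PARP2 and in 36.5% of all windows. A match of letters is a description and does not show that a factor bound there.

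Levels are compared between genes per length, as RPKM. PARP1 was the most abundant of the 9 genes in all 4 libraries, at 102 RPKM with circ0003553 against 104 RPKM with the control plasmid in DU145, and at 172 RPKM with circ0003553 against 191 RPKM with the control plasmid in PC3. Among genes with any reads it ranked between 245 and 467 by RPKM. PARP2 was next in 3 libraries, at 26.4 RPKM in the DU145 circ0003553 library against 28.2 RPKM in the DU145 control library and at 21.5 RPKM in the PC3 control library. In the PC3 circ0003553 library ZC3HAV1, at 31.3 RPKM, stood above PARP2, at 21.4 RPKM. In the other libraries ZC3HAV1 came next after PARP2.

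The 6 remaining interferon-linked genes lay between 1.96 and 8.54 RPKM. In DU145, TIPARP and then PARP14 came after ZC3HAV1 with either plasmid, and PARP9 was lowest. The 95% intervals of neighbouring genes in the order overlapped from PARP14 through PARP12 and DTX3L to PARP10 with circ0003553, and from PARP14 through PARP10 and PARP12 to DTX3L with the control plasmid. PARP12 was the lowest of the 9 in both PC3 libraries. In the PC3 circ0003553 library TIPARP and PARP14 overlapped, as did DTX3L, PARP9 and PARP10. In the PC3 control library ZC3HAV1 and PARP14 overlapped, and so did PARP14 and TIPARP. Over the summed RPKM of 17 PARP-family genes (the members without DTX3L and 9 further PARPs), the 6 interferon-linked PARP genes made up 19.1% with circ0003553 against 13.2% with the control plasmid in DU145, and 20.7% against 8.88% in PC3. PARP1 alone made up 49.5% against 53.3% in DU145 and 59.0% against 71.0% in PC3.

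**Figure D1:**
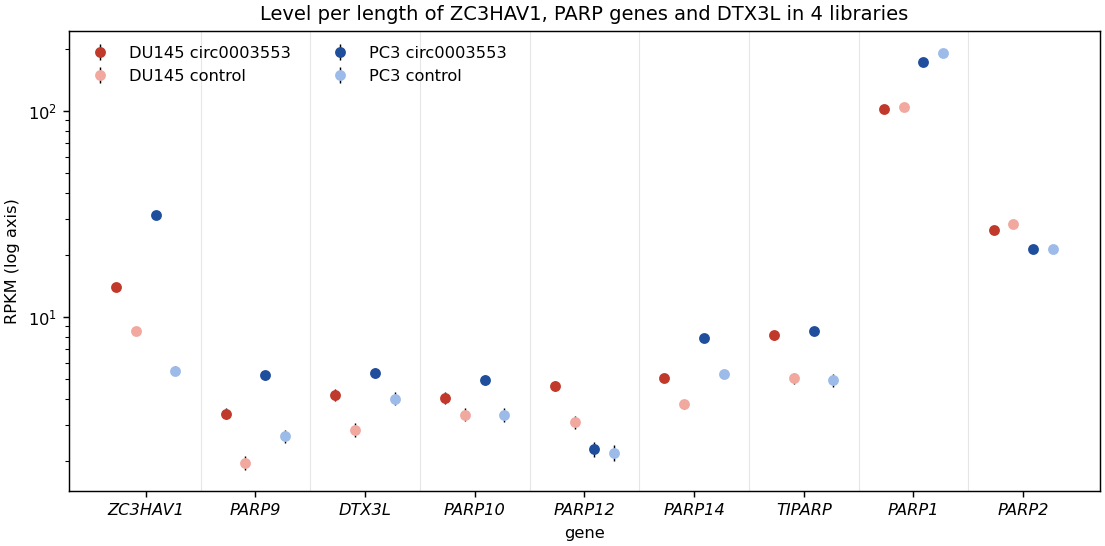
RPKM (log axis) of the 9 genes in each of the 4 libraries, with 95% exact Poisson intervals of the counts, each point being 1 library. PARP1 lies above 100 RPKM throughout, and ZC3HAV1 ranges between 5.50 and 31.3 RPKM.

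ZC3HAV1 had the highest ratio of the 9 genes. It had 4183 counts in the DU145 circ0003553 library against 2690 in the DU145 control library, and 10193 counts in the PC3 circ0003553 library against 1514 in the PC3 control library. Both circ0003553 libraries thus lay above both control libraries, and the PC3 control library was the lowest of the 4. The ratio, scaled by TMM (trimmed mean of M-values) library sizes, was 1.67 in DU145 (95% interval 1.59 to 1.75) and 5.61 in PC3 (5.31 to 5.92). Halving all counts widened these to 1.56 to 1.79 for DU145 and 5.19 to 6.06 for PC3. The PC3 ratio ranked 14 from the top of 17363 genes with at least 50 counts in that line, and the DU145 ratio ranked 499 of 17650. The log2 ratio was 1.75 higher in PC3 than in DU145 (1.60 to 1.89 by counting error from halved counts), a difference between single pairs of libraries that has no replicate. RCAN3 likewise had a higher ratio in PC3 (2.61) than in DU145 (1.37), and whether that plays a part in the ZC3HAV1 value was not tested. A model of cell line and plasmid over all 4 libraries gave a log2 fold change of 1.61 ± 0.26 (SE, n = 2 libraries per plasmid), a 3.05-fold change that averages unlike lines.

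PARP9 and DTX3L encode partners: DTX3L is a ubiquitin ligase of the Deltex family, and PARP9 is a macrodomain protein that forms a complex with it. PARP9 had 1107 counts in the DU145 circ0003553 library against 666 in the DU145 control library, and 1836 counts in the PC3 circ0003553 library against 788 in the PC3 control library. The ratios were 1.79 in DU145 (1.62 to 1.97) and 1.94 in PC3 (1.78 to 2.11), so the lines were close. In the fit PARP9 had a log2 change of 0.90 ± 0.11 (SE, n = 2 libraries per plasmid). DTX3L had 896 counts in the DU145 circ0003553 library against 633 in the DU145 control library and 1237 counts in the PC3 circ0003553 library against 788 in the PC3 control library. Its ratios were smaller, 1.52 in DU145 (1.37 to 1.69) and 1.31 in PC3 (1.19 to 1.43), and the fitted value was 0.49 ± 0.12. For PARP9 both circ0003553 libraries lay above both control libraries. For DTX3L the plasmid groups overlapped across lines in TMM-scaled CPM, with 24.32 in the DU145 circ0003553 library against 24.36 in the PC3 control library.

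The balance of this pair differed between the plasmids in PC3, by more than counting error. PARP9 RPKM was 0.974 of DTX3L RPKM in the PC3 circ0003553 library (0.906 to 1.05) against 0.657 in the PC3 control library (0.594 to 0.726). In DU145 it was 0.811 (0.742 to 0.887) against 0.691 (0.619 to 0.771), a difference in the same direction. The DU145 intervals overlapped, which does not show that the balance was equal there. These intervals were not taken from halved counts. The 217 bases they share on opposite strands are 2.43% of the PARP9 exon bases and 3.70% of those of DTX3L. Reads there could have been counted for either gene or for both.

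PARP14, a large macrodomain PARP known as a coactivator of STAT6, had 1935 counts in the DU145 circ0003553 library against 1506 in the DU145 control library and 3287 counts in the PC3 circ0003553 library against 1861 in the PC3 control library. Both PC3 libraries were above the DU145 library of the same plasmid, and the groups of plasmids overlapped across lines, since the DU145 circ0003553 library had 5.06 RPKM against 5.30 RPKM in the PC3 control library. The ratios were 1.38 in DU145 (1.29 to 1.48) and 1.47 in PC3 (1.39 to 1.56), with a fitted log2 fold change of 0.51 ± 0.10 (SE, n = 2 libraries per plasmid). TIPARP, also called PARP7, is a target and feedback inhibitor of the aryl hydrocarbon receptor that also restrains type I interferon signalling. It had 1504 counts in the DU145 circ0003553 library against 969 in the DU145 control library and 1702 counts in the PC3 circ0003553 library against 831 in the PC3 control library. Its levels hardly differed between lines, at 8.17 RPKM in DU145 and 8.54 RPKM in PC3 with circ0003553, against 5.05 RPKM in DU145 and 4.92 RPKM in PC3 with the control plasmid. The ratios were 1.67 in DU145 (1.54 to 1.81) and 1.71 in PC3 (1.57 to 1.86), and TIPARP had 0.75 ± 0.11 in the fit, with both circ0003553 libraries above both control libraries.

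PARP10 and PARP12 had the smallest fitted changes of the interferon-linked genes. PARP10, a mono-ADP-ribosyltransferase found to hinder virus replication, had 894 counts in the DU145 circ0003553 library against 771 in the DU145 control library and 1182 counts in the PC3 circ0003553 library against 677 in the PC3 control library. Its ratios were 1.25 in DU145 (1.13 to 1.37) and 1.45 in PC3 (1.32 to 1.60), with 0.43 ± 0.12 in the fit, and the plasmid groups did not overlap. Exons of GRINA and SPATC1 on the other strand cover 8.64% of the PARP10 exon bases. GRINA had between 312 and 774 counts across the libraries and SPATC1 at most 16. PARP12, which carries CCCH zinc fingers like ZC3HAV1 and restricts viral RNA replication, had 1061 counts in the DU145 circ0003553 library against 737 in the DU145 control library and 566 counts in the PC3 circ0003553 library against 460 in the PC3 control library. Its ratio was 1.55 in DU145 (1.41 to 1.70) and 1.02 in PC3, where the interval of 0.904 to 1.16 held 1. The log2 ratio was thus 0.59 lower in PC3 than in DU145, a difference of -0.59 (-0.91 to -0.28 by counting error from halved counts). The fitted value of PARP12 was 0.35 ± 0.14, and its plasmid groups overlapped across lines.

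The DNA repair pair had ratios close to 1, apart from PARP1 in PC3, which was lower. PARP1, the main sensor of DNA breaks among the PARPs, had 26631 counts in the DU145 circ0003553 library against 28466 in the DU145 control library and 48696 counts in the PC3 circ0003553 library against 45827 in the PC3 control library. Its ratio was 1.005 in DU145 (0.988 to 1.02) and 0.885 in PC3 (0.874 to 0.896). In DU145 its log2 ratio changed sign with the scaling, at 0.0070 by TMM and -0.035 by total counts. PARP2, which shares the repair role of PARP1, had 3945 counts in the DU145 circ0003553 library against 4394 in the DU145 control library and 3466 counts in the PC3 circ0003553 library against 2943 in the PC3 control library, with ratios of 0.964 in DU145 (0.924 to 1.01) and 0.981 in PC3 (0.933 to 1.03). The fitted log2 fold changes were -0.085 ± 0.11 for PARP1 and -0.040 ± 0.096 for PARP2 (SE, n = 2 libraries per plasmid). PARP2 shares 3.17% of its exon bases with genes on the other strand, RPPH1 among them, and the pseudogene PARP1P1 held at most 96 counts. RPPH1 itself had between 1003 and 1296 counts across the libraries, and whether its reads entered the PARP2 counts was not tested.

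**Figure D2:**
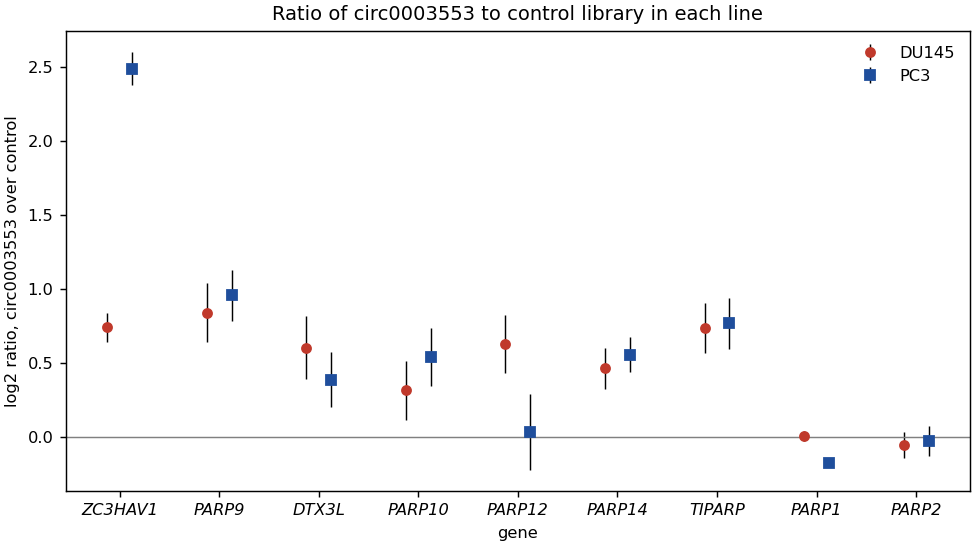
Log2 ratio of the circ0003553 to the control library, scaled by TMM, for each gene in DU145 (circles) and PC3 (squares), with 95% exact binomial intervals from halved counts. ZC3HAV1 in PC3 stands alone at 2.49, PARP12 in PC3 is at 0.035, and PARP1 and PARP2 lie near 0, with PARP1 in PC3 at -0.18.

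Set against all genes, all 9 members passed the filter on low counts. In the fit, 4 of the 9 passed an adjusted p of 0.05 and are called (ZC3HAV1, PARP9, PARP14 and TIPARP), all in the higher direction, where 0.396% of 21731 genes were called higher and 0.465% in either direction. None of the 9 passed in the lower direction, where 0.069% of genes did. A fitted value above 0 was found for 7 of the 9, where 50.5% of genes had one. The members were chosen with this comparison known, so nothing is read from the count. It was 2 with legacy dispersions (PARP9 and TIPARP), 3 with DESeq2, where ZC3HAV1 was not called, and 0 without a filter on low counts or without the cell line in the fit. The median fitted log2 fold change of the 7 interferon-linked genes was 0.51, beside 0.00303 over all genes tested. Within DU145 their median log2 ratio was 0.63 (range 0.32 to 0.84), and within PC3 it was 0.56 (0.035 to 2.49). Over all genes compared, the medians were 0.00587 in DU145 and 0.000511 in PC3.

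Counted by interval, 7 of the 9 members had a ratio interval wholly above 1 in DU145, where 25.2% of 17650 genes had one, and 6 did in PC3, where 18.1% of 17363 genes had one. In both lines at once it was 6 of the 9, all interferon-linked members but PARP12, where 8.02% of 15868 genes had such intervals. None of the 9 had intervals wholly below 1 in both lines, where 6.63% of genes did. In PC3 alone the PARP1 interval lay wholly below 1 (0.874 to 0.896), and its ratio was above those of 19.1% of genes. A ratio of at least 2 was reached by ZC3HAV1 in PC3 alone, where 0.968% of genes reached it, and by no member in DU145, where 1.16% of genes did. Most members were moderately higher, in the upper parts of the distribution, a description only, since they were chosen with the plasmid results known. In DU145 the interferon-linked ratios lay above those of 86.4% to 98% of genes, and in PC3 above those of 56.7% to 99.9%.

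**Figure D3:**
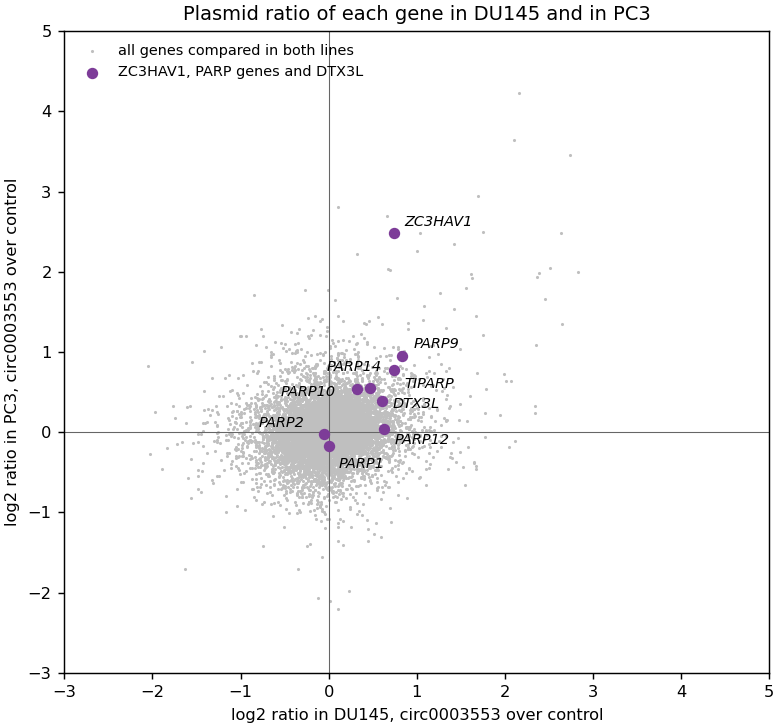
Log2 ratio of the circ0003553 to the control library in DU145 (x axis) and in PC3 (y axis) for the 15868 genes with at least 50 counts in each line, grey points, with the 9 members in purple. ZC3HAV1 lies much higher on the PC3 axis than on the DU145 axis, and PARP9, TIPARP, PARP14, PARP10 and DTX3L lie above 0 on both. PARP1 and PARP2 lie near the centre, with PARP1 at -0.18 on the PC3 axis.

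Between the lines, 6 of the 9 members were called in the same fit, where 65.9% of all genes were, so the members' share is near the background. They were 4 higher in PC3, where 33.1% of genes were, and 2 lower, where 32.8% were. ZC3HAV1 was not called (log2 fold change of PC3 over DU145 0.36 ± 0.26, adjusted p = 0.235, edgeR's quasi-likelihood test). That value averages opposite ratios: PC3 had 2.31 times the DU145 level in the circ0003553 libraries (2.23 to 2.40) and 0.688 times that level in the control libraries (0.646 to 0.733). None of the other 8 genes had ratios on opposite sides of 1 under the plasmids. PARP1 was higher in PC3 (0.89 ± 0.11, adjusted p = 3.48e-06), as was PARP14 (0.64 ± 0.10, adjusted p = 5.28e-05). So were PARP9 (0.60 ± 0.11, adjusted p = 0.000269) and DTX3L (0.49 ± 0.12, adjusted p = 0.00191). The members that lie in a row on chromosome 3 were thus all higher in PC3, but this was not particular to them. KPNA1, beside PARP9, had 7974 counts in the PC3 control library against 3475 in the DU145 control library. HSPBAP1, beside PARP14, had 912 against 220, while WDR5B, further out, had 92 against 93. PARP12 was lower in PC3 (-0.70 ± 0.15, adjusted p = 0.000656), with 0.506 times the DU145 level in the circ0003553 libraries and 0.763 times in the control libraries. PARP2 was also lower in PC3 (-0.28 ± 0.10, adjusted p = 0.0201), a call that was lost without a filter on low counts (adjusted p = 0.0539). TIPARP (0.086 ± 0.11, adjusted p = 0.501) and PARP10 (0.22 ± 0.12, adjusted p = 0.120) were not called.

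**Figure D4:**
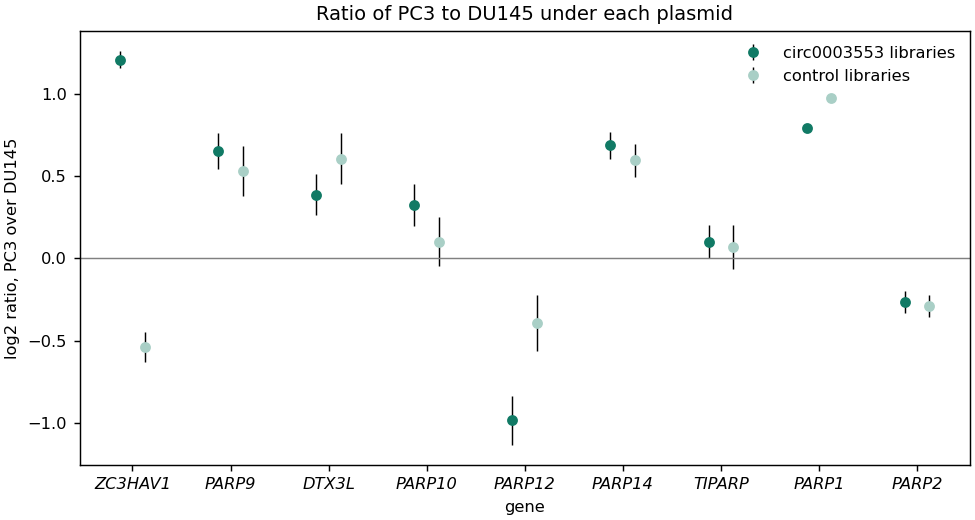
Log2 ratio of PC3 to DU145, scaled by TMM, for each gene in the circ0003553 libraries (dark) and in the control libraries (light), with 95% exact binomial intervals. ZC3HAV1 lies at 1.21 with circ0003553 and at -0.54 with the control plasmid, on opposite sides of 0, while the other genes keep theirs.

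Neighbouring genes were examined because PARP9, DTX3L and PARP14 lie in a row. Of genes tested and with at least 50 counts in each line, these were consecutive, and their ratios ran, in DU145, between 1.38 and 1.79 and, in PC3, between 1.31 and 1.94. The 3 genes on either side had ratios of 0.716 to 1.02 in DU145 and 0.638 to 1.13 in PC3. KPNA1, which encodes a nuclear import receptor and lies beside PARP9, had ratios of 1.02 in DU145 and 1.01 in PC3. HSPBAP1, the next after PARP14, had 0.962 in DU145 and 0.896 in PC3. PARP15, the remaining macrodomain PARP, had at most 3 counts in any library and was not tested. On chromosome 7, the genes adjoining ZC3HAV1 had ratios near or below 1: its paralog ZC3HAV1L, on one side, had ratios of 0.744 in DU145 and 1.04 in PC3, and TTC26, on the other, had 0.885 in DU145 and 1.07 in PC3. KDM7A, which encodes a histone demethylase and is the next gene after PARP12, had ratios of 1.68 (1.37 to 2.07) in DU145 and 1.23 (1.03 to 1.47) in PC3, beside 1.55 and 1.02 for PARP12. The 15 genes between and around them had ratios of 0.339 to 2.01 in DU145 and 0.791 to 1.43 in PC3. Among these, LUC7L2 and C7orf55-LUC7L2 overlap and had similar counts, 18673 and 17869 in the DU145 circ0003553 library, so their values are not separate. The neighbouring genes were chosen by position after the members' values were known.

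**Figure D5:**
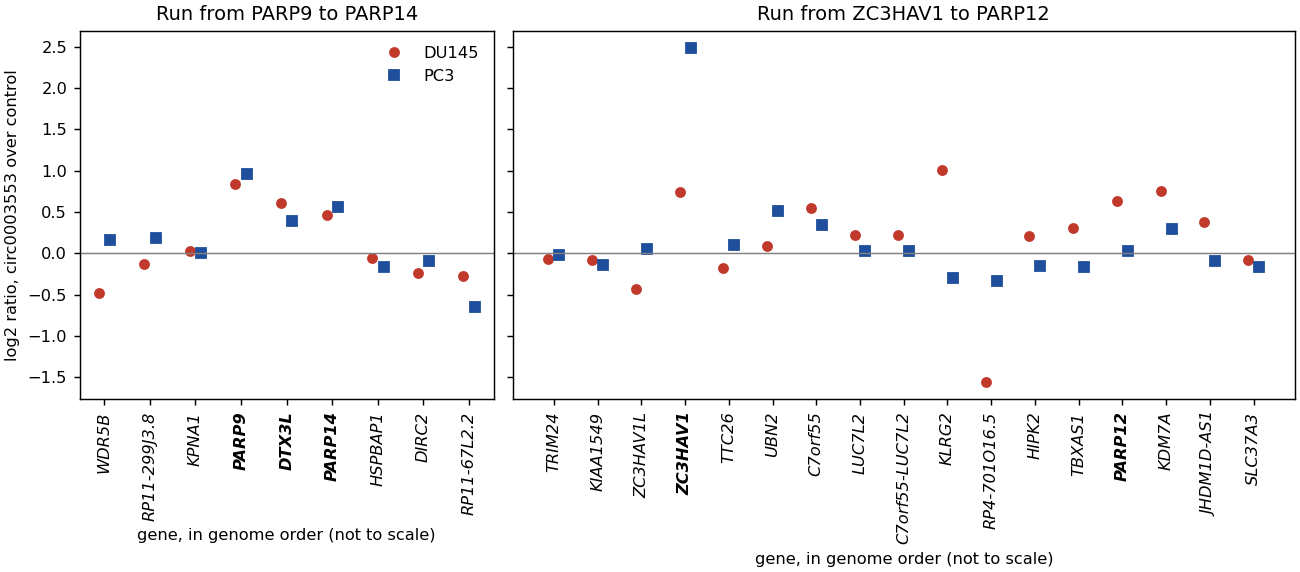
Log2 ratio of the circ0003553 to the control library for genes in genome order around PARP9, DTX3L and PARP14 (left) and from ZC3HAV1 to PARP12 (right), in DU145 (circles) and PC3 (squares), with members in bold. On the left the 3 members lie above 0 in both lines and the 6 genes around them lie near or below it, with at most 1.13-fold.

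The other genes of the pathway were taken from lists and tested over all genes. These lists were chosen with earlier results of these data known, so their calls, too, are a description. Of 59 related genes 58 were tested, 2 of them were higher with circ0003553 by edgeR's quasi-likelihood test at an adjusted p of 0.05 (DESeq2 also called 2), and none was lower. Over all 21731 genes tested, edgeR called 0.396% higher and 0.069% lower. The median log2 fold change over the 58 was 0.036. IRF9, a DNA-binding subunit of the complex that carries the interferon signal to promoters, was one of those called. It had 1564 counts in the DU145 circ0003553 library against 499 in the DU145 control library and 1584 counts in the PC3 circ0003553 library against 571 in the PC3 control library. IRF9 rose with a fitted log2 fold change of 1.48 ± 0.14 (SE, n = 2 libraries per plasmid, adjusted p = 4.14e-05), a larger value than that of any member but ZC3HAV1. STAT2, another subunit of the complex, had 0.28 ± 0.11 and was not called (adjusted p = 0.464). The call of IRF9 was lost without a filter on low counts (adjusted p = 0.100) and without the cell line in the fit.

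None of the 8 other PARP genes tested was called. Of the 58 related genes, 10 had an unadjusted p under 0.05 in edgeR's test, beside 1929 of all 21731 genes tested. Their fitted log2 fold changes ran from -0.33 to 0.26 (median 0.11), with PARP4, the vault PARP, at 0.26 ± 0.10 (adjusted p = 0.449) and the tankyrase gene TNKS2 at -0.020 ± 0.10. PARP6 was detected mainly in DU145, with 1909 counts in the DU145 circ0003553 library against 2136 in the DU145 control library, and 2 counts in the PC3 circ0003553 library against 6 in the PC3 control library. None of the 12 cofactors and decay partners of ZC3HAV1 was called either (median 0.061). Among them TRIM25, a ubiquitin ligase that ZC3HAV1 needs for full activity and which is named here after its values were seen, had 4754 counts in the DU145 circ0003553 library against 2952 in the DU145 control library and 5867 counts in the PC3 circ0003553 library against 4241 in the PC3 control library. Its ratios were 1.73 in DU145 (1.65 to 1.81) and 1.15 in PC3 (1.11 to 1.20), the reverse order of lines to ZC3HAV1, and the fit gave TRIM25 0.50 ± 0.12 (adjusted p = 0.129). ZC3HAV1 RPKM was 1.41 times TRIM25 RPKM in the PC3 circ0003553 library (1.36 to 1.45), against 0.289 in the PC3 control library (0.272 to 0.307), and 0.712 in the DU145 circ0003553 library (0.683 to 0.743), against 0.738 in the DU145 control library (0.700 to 0.777). The RNA helicase genes DDX17 and DHX30 had fitted log2 values of -0.070 ± 0.10 for DDX17 and 0.16 ± 0.095 for DHX30, and the exosome gene EXOSC10 had 0.077 ± 0.096.

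The lists on either side of ADP-ribose itself held no call. The fitted log2 fold changes of 8 genes that remove ADP-ribose ran from -0.16 to 0.53 (median 0.037). Among them PARG, which cuts the chains, had 0.044 ± 0.098, NUDT16 had -0.012 ± 0.096 and ADPRHL2 had 0.043 ± 0.10. The 8 genes of NAD supply spread widely, from -0.73 to 0.70 (median 0.016). NAMPT, the rate-limiting enzyme of NAD salvage, had 0.063 ± 0.095, NADK had -0.038 ± 0.099 and NADSYN1 had 0.091 ± 0.12. At the ends of the range were QPRT, at -0.73 ± 0.27, and NMNAT2, at 0.70 ± 0.19. QPRT was detected mainly in DU145, with 178 counts with circ0003553 against 308 with the control plasmid. In PC3 it had 2 counts with circ0003553 against 6 with the control plasmid. The ratios of NMNAT2 were 1.12 in DU145 (0.948 to 1.32) and 2.22 in PC3 (1.96 to 2.52). The 4 other Deltex genes ran from -0.42 to 0.16 (median -0.18), with DTX2 at -0.061 ± 0.12, DTX3 at 0.16 ± 0.13 and DTX4 at -0.42 ± 0.22. The 8 genes of single-strand break repair, which work with PARP1, ran from -0.092 to 0.15 (median 0.0071), with XRCC1 at -0.092 ± 0.11, APTX at -0.032 ± 0.11 and CHD1L at -0.026 ± 0.095. Of 7 genes of the aryl hydrocarbon receptor pathway, of which TIPARP is a target, none was called (median -0.083, range -0.32 to 0.30). NQO1 had -0.32 ± 0.11 (adjusted p = 0.400) and ARNT had -0.083 ± 0.11, and the target gene CYP1A1 had 169 counts with circ0003553 against 165 with the control plasmid in DU145, and 32 with circ0003553 against 42 with the control plasmid in PC3.

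Among 14305 tested genes that are not members and average 1 or more in log2 CPM, those with the pattern most like that of each member were found by Euclidean distance between centred log2 CPM values over the 4 libraries. For ZC3HAV1 the nearest was DDX58, which encodes the RNA sensor RIG-I, at a distance of 0.372 and with ratios of 2.00 in DU145 and 4.77 in PC3. Next were PMAIP1, which encodes the pro-apoptotic protein NOXA (0.719, ratios of 3.07 and 3.93), and IFIH1, which encodes the RNA sensor MDA5 (0.729, ratios of 2.11 and 2.97). For PARP9 the nearest were the meiotic cohesin gene REC8 (0.0205, ratios of 1.81 and 2.00) and the transcription factor gene KLF4 (0.117, ratios of 1.81 and 2.01). DTX3L was nearest to SPOCD1 (0.0542), PARP10 to RP11-87H9.4 (0.0580), PARP12 to RNF169 (0.0529), PARP14 to TCP11L2 (0.0916) and TIPARP to RDH5 (0.164). Some of these nearest genes had low counts: REC8 54 to 154, RP11-87H9.4 114 to 199, TCP11L2 66 to 152 and RDH5 76 to 148. SPOCD1 and RNF169 had at least 455. Distances that rest on low counts carry a large counting error. With 4 libraries such likeness is a description.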

How the data were processed

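Gene expression was measured by RNA sequencing in 4 libraries. The deposited tables hold raw counts for each gene, as whole numbers, and RPKM. The RPKM that the authors deposited equalled the counts divided by gene length and column total, to a relative difference of at most 8.68e-14. Per the submitters' processing notes, hg38, featureCounts, Subread 1.5.1, Trimmomatic 0.36 and edgeR 3.12.1 were used, with no order given. The kit adds molecular identifiers and keeps strand, per the labels' protocols. The aligner, the strand setting of counting and collapsing by identifier are not stated in the labels, so reads of genes overlapping on opposite strands may not be separated. By name, the NC column of each line was matched to its negative control sample and the RCAN3 column to its circ0003553 sample.

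Counts were fitted with edgeR 4.0.16 (R 4.3.3): TMM scaling, low-count filtering by plasmid, line and plasmid as additive terms, the quasi-likelihood test and Benjamini-Hochberg adjustment over 21731 genes at 0.05. The line served as the block, taken from the labels, leaving 1 residual degree of freedom against a median prior of 13.4, so errors and p-values rest mostly on a spread shared across genes. Nothing in the labels says whether the libraries came from separate cultures. SE is the size of the log2 fold change over the square root of the F statistic. An interaction of line and plasmid leaves no residual degrees of freedom. Ratios within a line have exact conditional binomial (Clopper-Pearson) intervals, and RPKM have exact Poisson intervals, at 95%. DESeq2 1.42.0 and other settings served as alternatives. The members and gene lists were chosen with earlier results of these data known. The text names every member, the called genes of each related list and its 3 genes of highest mean CPM, and others only where stated. Some genes that this rule names are not reported here.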

Additional observations from a re-analysis of the deposited data

Results flagged for a closer look

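Of the 64 members and related genes compared in both lines, 3 related genes had ratio intervals from the counts on opposite sides of 1 in the lines, a share of 4.69% beside 7.3% of all 15868 genes compared. None of these differences between lines was tested, since each line has 1 library per plasmid. PARP16, which encodes a PARP of the endoplasmic reticulum, had a ratio of circ0003553 to control of 0.763 in DU145 (103 counts with circ0003553 against 145 with the control plasmid) and 1.68 in PC3 (141 counts with circ0003553 against 70 with the control plasmid). DDX17 had ratios of 0.868 in DU145 and 1.05 in PC3, and PARN, which encodes a poly(A)-specific ribonuclease, had 1.09 in DU145 and 0.916 in PC3. With halved counts the interval held 1 for PARP16 in DU145, for DDX17 in PC3 and for PARN in both lines, so none of the 3 then had intervals on opposite sides of 1.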

How the results depend on the processing

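The fitted log2 fold changes of the 9 members kept their sign under all 7 alternative settings of the fit, with ranges of 1.60 to 1.71 for ZC3HAV1, 0.89 to 0.91 for PARP9, 0.74 to 0.76 for TIPARP, 0.50 to 0.52 for PARP14 and 0.33 to 0.40 for PARP12. The 101 genes called between plasmids became 63 with DESeq2, 53 with legacy dispersions, 9 with every gene kept and 0 without the cell line as replicate block, where edgeR left 26 genes at an unadjusted p under 0.05 (DESeq2 was not run without the block). The 4 members called became 2 with legacy dispersions and 0 without a filter, where 6 had an unadjusted p under 0.05, and 0 without the replicate block, where 2 had one; DESeq2 called 3. The 2 related genes called became 1 with legacy dispersions and 0 without a filter or without the block. At an unadjusted p under 0.05 edgeR left 10 related genes without a filter, beside 1769 of all genes. Without the block it left 1, beside 26 of all genes. The cause of these losses was not tested. PARP14 was called with RLE size factors and DESeq2 but not with total counts or halved counts, and ZC3HAV1 was not called with DESeq2 or legacy dispersions. Within lines, scaling by total counts moved the PARP1 log2 ratio to -0.035 in DU145 and -0.15 in PC3. With 1 library of each plasmid in each line, leaving out a line leaves the ratio of the other, with no test.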
